A study of Mus musculus with 41 samples.

Results

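Osteoclast differentiation and bone resorption were followed through 10 genes in RNA sequencing of mouse tibia: Nfatc1, Oscar, Dcstamp, Ocstamp, Calcr, Itgb3, Atp6v0d2, Clcn7, Acp5 and Ctsk. They were chosen by gene symbol, for their roles in the osteoclast, and all 10 were found among the 43346 genes of the count table and among the 19292 genes that passed the filter on low counts. The RNA came from tibial diaphyses of 41 female INK-ATTAC mice on a C57BL/6 background, spun in a centrifuge to remove marrow, in 3 groups: 12 young mice, 13 old + vehicle-treated mice (the vehicle group) and 16 old + AP-treated mice (the AP group). Every mouse of every group carried the INK-ATTAC transgene, in which a fragment of the p16Ink4a promoter drives an inducible caspase, so that AP20187 (AP) kills cells in which this promoter is active, in whatever tissue they lie. The study injected old mice with vehicle or with AP at 10 mg/kg, 2 times per week, from 20 months of age for 4 months. Its methods do not say whether young mice were injected. By the methods the mice were 6 or 24 months old at collection, whereas GEO's labels read 6 to 12 months for young and 20 months for old mice and mark young mice with the vehicle code as well. The labels name no sequencing batch, and a mouse was 1 library.

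Osteoclasts are large multinucleated cells of the monocyte-macrophage lineage that dissolve bone. The cytokine RANKL, made in bone by osteocytes and osteoblasts, acts through its receptor RANK and, with costimulatory receptors, switches on the transcription factor NFATc1, which drives the genes of cell fusion, attachment and resorption. The mature cell seals itself to the bone surface, acidifies the space beneath it with a proton pump and a chloride channel, and secretes cathepsin K and acid phosphatase into it.

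Total counts were 37028959 to 75942717 per mouse (median 47774880), and the smallest count of any of the 10 genes in any mouse was 59, for Calcr in an old + vehicle-treated mouse. None of the 10 genes followed the total count of the libraries within groups (Pearson r -0.264 to 0.167, permutation test, adjusted p 0.272 to 0.406 over 10 relations). Markers of bone cells were read in every mouse, and so were those of other cells that remained in the diaphysis. The summed level of 7 osteoblast markers (Alpl, Bglap, Bglap2, Col1a1, Ibsp, Runx2, Sp7) was 3069 to 41553 CPM, a count divided by the scaled size of its library, that of 7 skeletal muscle markers 6036 to 90514 CPM and that of 8 neutrophil markers 4792 to 33282 CPM. Old + vehicle-treated mouse 7 and old + AP-treated mouse 27 stood above the other mice in most of the 10 genes, and results that rest on them are given with and without them. In bulk RNA, fewer osteoclasts and less of an RNA per osteoclast cannot be told apart.

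Promoter windows of 5 of the 10 genes (Acp5, Calcr, Clcn7, Ctsk and Oscar) were found in the RefSeq table used here (GRCm38.p6), and 3 are shown because these genes span the receptor, channel and phosphatase roles and varied together between mice as described further on. Each line gives the 250 bases before the annotated start in the direction of transcription, 5′ to 3′, with capitals for the NFAT core, GGAAA or its reverse complement TTTCC, and for the E-box CACGTG, the letters bound by TFEB and MITF.
Oscar (chr7:3616158-3616407, minus strand): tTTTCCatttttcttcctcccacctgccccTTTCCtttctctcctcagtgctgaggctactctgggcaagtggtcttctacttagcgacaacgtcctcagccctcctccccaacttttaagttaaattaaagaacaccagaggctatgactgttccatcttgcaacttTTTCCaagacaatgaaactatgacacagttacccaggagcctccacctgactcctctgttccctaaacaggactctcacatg
Acp5 (chr9:22135747-22135996, minus strand): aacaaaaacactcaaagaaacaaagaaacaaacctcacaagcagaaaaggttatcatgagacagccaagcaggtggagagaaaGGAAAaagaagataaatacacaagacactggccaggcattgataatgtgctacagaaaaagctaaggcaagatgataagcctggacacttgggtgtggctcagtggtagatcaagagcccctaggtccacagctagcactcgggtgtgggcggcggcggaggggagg
Clcn7 (chr17:25133141-25133390, plus strand): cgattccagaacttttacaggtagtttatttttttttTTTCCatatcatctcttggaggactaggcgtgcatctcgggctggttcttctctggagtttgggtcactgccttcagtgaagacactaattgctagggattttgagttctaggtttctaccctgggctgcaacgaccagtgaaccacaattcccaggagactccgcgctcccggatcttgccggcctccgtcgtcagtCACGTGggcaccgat
Windows of 300 bases, 250 before and 50 after the start, were searched on both strands for 4 motifs, which do not overlap in their letters except that a PU.1 core GAGGAA followed by A contains the NFAT core. These 5 genes have 9 annotated windows, since Acp5, Calcr and Clcn7 have more than 1 start. The NFAT core was in 7 of the 9 windows, and in the window at the gene's own start of each of the 5 genes, beside 61.3% of all 32851 windows. The PU.1 core was in 2 of 9 (Ctsk and Oscar, 2 matches each), beside 28.3% of all windows. The E-box was in 1 of 9 (Clcn7, 2 matches), beside 7.15%, and the AP-1 site TGANTCA in 0 of 9, beside 7.81%. These are matches of letters only, and the windows are too few to set against the shares over all genes.

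The regulators come first. Nfatc1 (ENSMUSG00000033016, chromosome 18), the transcription factor that commits precursors to the osteoclast fate, lay at 81.2 to 149 CPM in young mice (median 108), 96.9 to 223 CPM under vehicle (median 134) and 83.9 to 179 CPM under AP (median 118). The ranges overlapped, and 2 old + vehicle-treated mice lay above every young mouse. Oscar (ENSMUSG00000054594, GRCm38 chromosome 7, 3609813 to 3616157), a collagen-binding receptor that gives the costimulatory signal, lay at 11.9 to 35.3 CPM in young mice (median 19.8), 13.8 to 90.0 CPM under vehicle (median 25.5) and 4.85 to 53.0 CPM under AP (median 18.2). For this receptor 4 old + vehicle-treated mice exceeded the young range, and 4 old + AP-treated mice lay under it.

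Dcstamp (ENSMUSG00000022303, chromosome 15, 39745932 to 39760934) and Ocstamp (ENSMUSG00000027670, chromosome 2, 165393760 to 165400405) encode membrane proteins that osteoclast precursors need to fuse. Dcstamp lay at 10.3 to 35.9 CPM in young mice (median 18.5), 10.4 to 102 CPM under vehicle (median 18.2) and 3.45 to 52.6 CPM under AP (median 14.9). Ocstamp lay at 6.43 to 22.7 CPM (median 12.6), 6.31 to 73.4 CPM (median 16.6) and 4.07 to 37.1 CPM (median 10.96) in the same order of groups. The high ends under vehicle and under AP were those of mice 7 and 27. Calcr (ENSMUSG00000023964, chromosome 6, 3685677 to 3764713), the calcitonin receptor of mature osteoclasts, was the least abundant at 2.22 to 7.87 CPM in young mice (median 4.75), 1.41 to 8.34 CPM under vehicle (median 3.05) and 1.21 to 9.11 CPM under AP (median 3.78). Its locus also holds the microRNA genes Mir653 and Mir489 in the count table, and how reads shared with them were assigned is not given in the sources used here.

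Itgb3 (ENSMUSG00000020689, chromosome 11, 104608000 to 104670476) encodes integrin β3, which pairs with αv on osteoclasts and with αIIb on platelets and megakaryocytes. It lay at 218 to 588 CPM in young mice (median 372), 129 to 448 CPM under vehicle (median 262) and 193 to 698 CPM under AP (median 356). In 3 old + vehicle-treated mice it was lower than in every young mouse, and in none was it higher than the young range.

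For acid secretion, Atp6v0d2 (ENSMUSG00000028238, chromosome 4, 19876841 to 19922605), the proton pump subunit of osteoclasts, lay at 60.4 to 155 CPM in young mice (median 94.7), 40.5 to 211 CPM under vehicle (median 91.3) and 23.1 to 213 CPM under AP (median 91.0). Clcn7 (ENSMUSG00000036636, chromosome 17, 25133391 to 25162104), the lysosomal chloride-proton exchanger, was narrower, at 72.2 to 127 CPM (median 94.7), 79.8 to 185 CPM (median 99.3) and 75.2 to 153 CPM (median 89.8) in young, vehicle and AP mice. Its product is found in lysosomes of most cells, and the gene is not restricted to osteoclasts.

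The last genes are those of the resorption enzymes. Acp5 (ENSMUSG00000001348, chromosome 9, 22126731 to 22135746), tartrate-resistant acid phosphatase, lay at 598 to 2173 CPM in young mice (median 1155), 590.0 to 4072 CPM under vehicle (median 1192) and 452 to 3026 CPM under AP (median 990.4). Ctsk (ENSMUSG00000028111, chromosome 3, 95499286 to 95509362), the collagen-degrading cathepsin K, lay at 646 to 2200.3 CPM (median 1095), 414 to 3515 CPM (median 995) and 249.9 to 2537 CPM (median 861). For both enzymes the highest mouse of all was old and vehicle-treated, and the lowest was AP-treated.

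**Figure D1:**
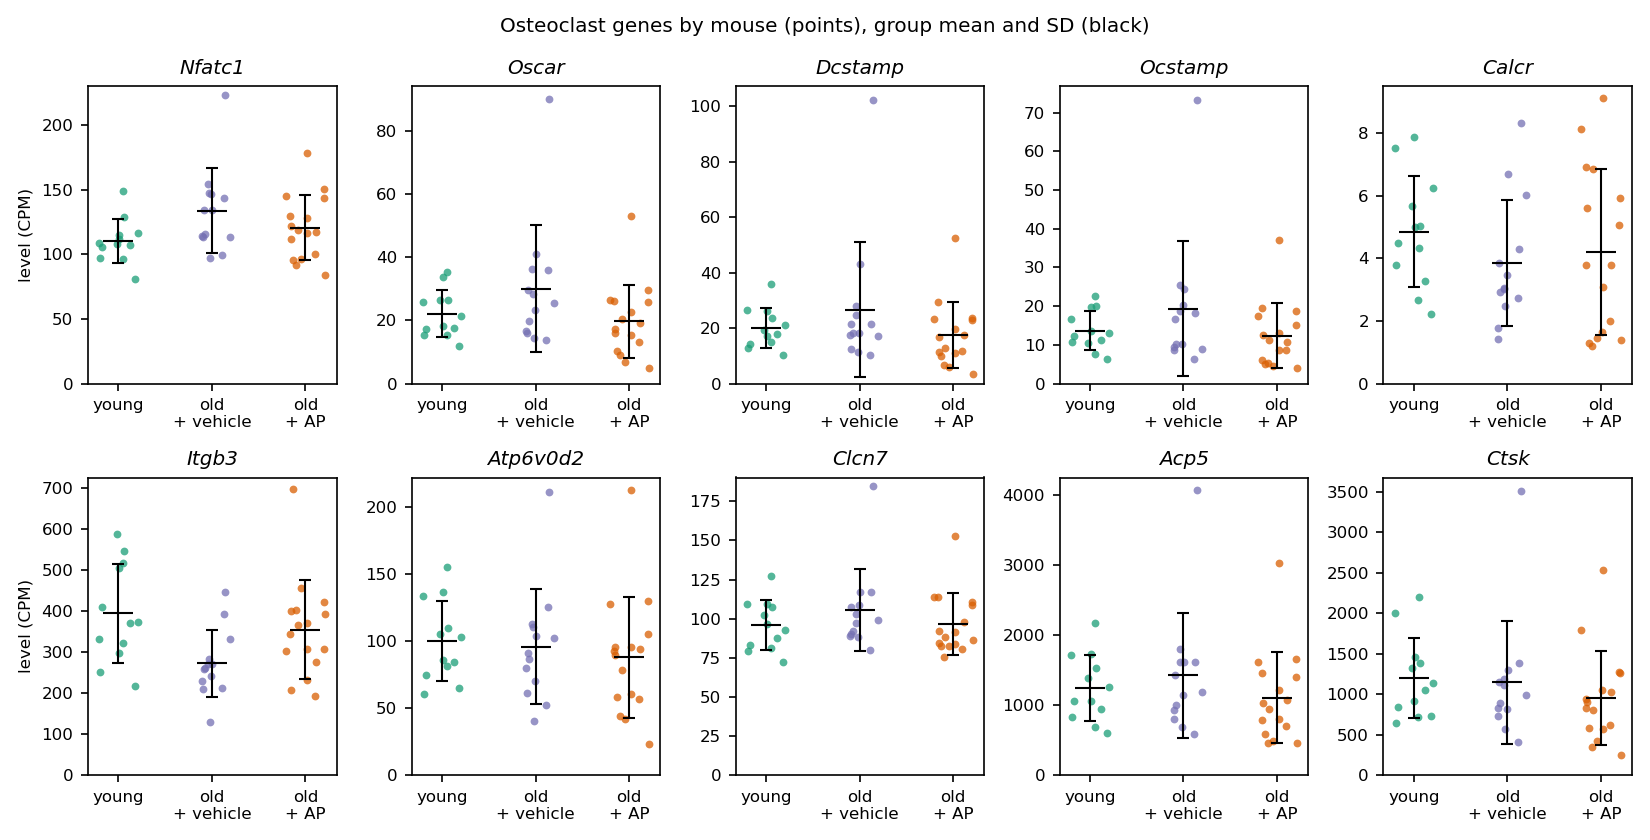
Level of each of the 10 genes in CPM (linear axes from 0), 1 point per mouse, by group, with black bars for the group's mean and SD. Every pair of group ranges overlaps for every gene, and 1 old + vehicle-treated mouse and 1 old + AP-treated mouse stand at the top of most genes.

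Per kilobase of the gene length given in the file, 2 enzymes stood far above the other 8 genes. In young mice Ctsk was at 809 ± 338 and Acp5 at 773 ± 295 CPM per kilobase (SD, n = 12), which did not differ beyond their spread, with Ctsk the higher in 6 of 12 mice. In old mice the order of their means was the other way round, with Acp5 above Ctsk in 12 of 13 vehicle-treated mice (883 ± 550 against 772 ± 517 CPM per kilobase, SD) and in 12 of 16 AP-treated mice (686 ± 404 against 641 ± 390). Below them came, in young mice, Itgb3 (66.9 ± 20.4), Atp6v0d2 (36.7 ± 11.01), Clcn7 (18.1 ± 3.02), Nfatc1 (14.9 ± 2.28), Oscar (11.9 ± 4.05), Dcstamp (10.0 ± 3.60), Ocstamp (3.74 ± 1.39) and Calcr (1.24 ± 0.454 CPM per kilobase), each with n = 12. Clcn7 and Nfatc1, Nfatc1 and Oscar, and Oscar and Dcstamp were neighbours whose mean ± SD ranges overlapped, and so were Itgb3 and Atp6v0d2. Below the enzymes this order of means was the same in the old + vehicle-treated and the old + AP-treated mice.

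Single mice differed more than the groups did. Between the highest and the lowest of the 41 mice, Dcstamp differed 29.6-fold, Oscar 18.6-fold, Ocstamp 18.04-fold and Ctsk 14.1-fold in CPM, whereas Nfatc1 differed 2.75-fold and Clcn7 2.56-fold. The SD of log2 CPM of the 10 genes was 0.22 to 0.58 in young mice, 0.30 to 0.94 under vehicle and 0.26 to 1.03 under AP, beside medians over all tested genes of 0.29, 0.36 and 0.38. Old + vehicle-treated mouse 7 was among the 3 highest mice for 9 of 10 genes and the highest of all for 7, with 4072 CPM of Acp5 and 102 CPM of Dcstamp. Old + AP-treated mouse 27 was also among the 3 highest for 9 of 10 genes, with 3026 CPM of Acp5 and 52.6 CPM of Dcstamp. For both mice the exception was Itgb3, at 448 and 371 CPM. The same mice had summed osteoblast markers of 40347 and 32763 CPM, the highest of their groups.

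Old + vehicle-treated mice were compared with young mice. These groups differed in age and, if young mice were not injected, in 4 months of vehicle injection, and the 2 cannot be told apart. Itgb3 was lower, from a mean of 395 ± 121 CPM (SD, n = 12) to 272 ± 81.8 CPM (SD, n = 13), and the other 9 genes did not pass the test. To be called, a gene needed a log2 fold change beyond 0.5 in either direction together with an adjusted p under 0.05, which 1 of the 10 genes met, beside 9.06% of all tested genes called in either direction, 4.3% higher and 4.76% lower. The count of 1 is near what the background gives for 10 genes. An unadjusted p under 0.05 was reached by 2 of the 10 (Itgb3 and Nfatc1), beside 31.8% of all genes. Itgb3 fell by 0.53 on the log2 scale (standard error 0.18, 95% interval -0.88 to -0.19, adjusted p = 0.0279), with 11 of 13 old + vehicle-treated mice below the young median. Its call was lost in 5 of the 41 fits that left out 1 mouse each, namely without old + vehicle-treated mouse 16 (-0.47, adjusted p = 0.0505) or young mouse 33 (-0.49, 0.0519), 38 (-0.50, 0.0527), 39 (-0.47, 0.0610) or 41 (-0.48, 0.0577). It was also lost with the score of megakaryocyte markers (-0.10, 0.567), muscle markers (-0.37, 0.0106, under the fold-change threshold) or macrophage markers (-0.43, 0.0430, under the threshold) in the model, as described further on. The summed megakaryocyte markers had medians of 677 CPM in young and 359 CPM in old + vehicle-treated mice, and their part in the Itgb3 difference was not tested.

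Among the genes that were not called, Nfatc1 had a log2 fold change of 0.28 (standard error 0.11, 95% interval 0.05 to 0.50, adjusted p = 0.0832), and 11 of 13 old + vehicle-treated mice lay above the young median. Oscar stood at 0.44 (95% interval -0.12 to 1.01, adjusted p = 0.295), Ocstamp at 0.50 (-0.16 to 1.15, 0.315) and Dcstamp at 0.41 (-0.24 to 1.07, 0.414). Without mouse 7 these values were 0.19 for Nfatc1, 0.18 for Oscar, 0.11 for Ocstamp and 0.02 for Dcstamp, so that over 50% of the difference in Oscar, Ocstamp and Dcstamp came with 1 mouse. The enzymes and the acid secretion genes had intervals that spanned 0. Acp5 stood at 0.19 (-0.36 to 0.74, adjusted p = 0.685), Ctsk at -0.07 (-0.65 to 0.51, 0.901), Atp6v0d2 at -0.06 (-0.53 to 0.42, 0.901), Clcn7 at 0.14 (-0.07 to 0.36, 0.394) and Calcr at -0.33 (-0.94 to 0.28, 0.496). Without mouse 7 Acp5 stood at -0.05 and Ctsk at -0.34. With all mice the median over the 10 genes was 0.17 on the log2 scale, beside 0.01 over all tested genes. Without mouse 7 each of the 10 values was lower, and they ran from -0.61 for Itgb3 to 0.19 for Nfatc1. The median thus rests in part on 1 mouse.

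Old + AP-treated mice were compared with young mice and with old + vehicle-treated mice. These comparisons share samples with the one by age, and each is given by its own values. Against young mice 0 of 10 genes were called, beside 8.58% of all genes (3.73% higher and 4.85% lower). By the quasi-likelihood test 0 of the 10 had an unadjusted p under 0.05, beside 32.2% of all genes, and DESeq2 called 0. The log2 fold changes ran from -0.34 for Ctsk (95% interval -0.89 to 0.21, adjusted p = 0.425) to 0.13 for Nfatc1 (-0.09 to 0.34, 0.439), with Itgb3 at -0.15 (-0.48 to 0.18, 0.565). Their median with all mice was -0.17, beside 0.02 over all tested genes. Without mouse 27 the values ran from -0.51 for Ctsk (adjusted p = 0.171) to 0.08 for Nfatc1, with Dcstamp at -0.41 and Acp5 at -0.35. The median thus rests in part on 1 mouse.

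Against old + vehicle-treated mice 0 of 10 genes were called, beside 0.0726% of all genes (14 genes, 0.0259% higher and 0.0467% lower). This background rests on single mice, since leaving out 1 mouse gave 0 to 405 called genes, with 405 without AP mouse 9, 312 without mouse 2 and 241 without mouse 10, and 0 in 7 of the 41 fits (without mouse 6, 7, 8, 16, 18, 19 or 23). It was 0 without the filter on low counts or with only the 2 groups in the model, and 216 (1.12%) by DESeq2. By edgeR's test 3 of the 10 had an unadjusted p under 0.05, beside 23.9% of all genes, and DESeq2 called 0 of the 10. Itgb3 was at 355 ± 120 CPM (SD, n = 16) under AP, a log2 fold change of 0.38 (standard error 0.17, 95% interval 0.06 to 0.71, adjusted p = 0.157), with 13 of 16 mice above the vehicle median. Ocstamp stood at -0.65 (-1.25 to -0.04, adjusted p = 0.194) with 12 of 16 mice below the vehicle median, and Oscar at -0.61 (-1.13 to -0.08, 0.162) with 11 of 16. Dcstamp stood at -0.62 (-1.22 to -0.01, 0.214) with 10 of 16, and its unadjusted p by edgeR's test was 0.0527. Without vehicle mouse 7 the values were -0.26 for Ocstamp, -0.34 for Oscar and -0.22 for Dcstamp, and without AP mouse 27 they were -0.85, -0.78 and -0.82. The other 6 genes lay between -0.36 for Acp5 (adjusted p = 0.391) and 0.12 for Calcr (0.815). The median of the 10 with all mice was -0.21, beside -0.00 over all tested genes. Without mouse 7 the 10 values ran from -0.34 for Oscar to 0.46 for Itgb3, with Acp5 at -0.12. Without mouse 27 they ran from -0.85 for Ocstamp to 0.38 for Itgb3, with Acp5 at -0.54. The median thus rests in part on these mice.

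**Figure D2:**
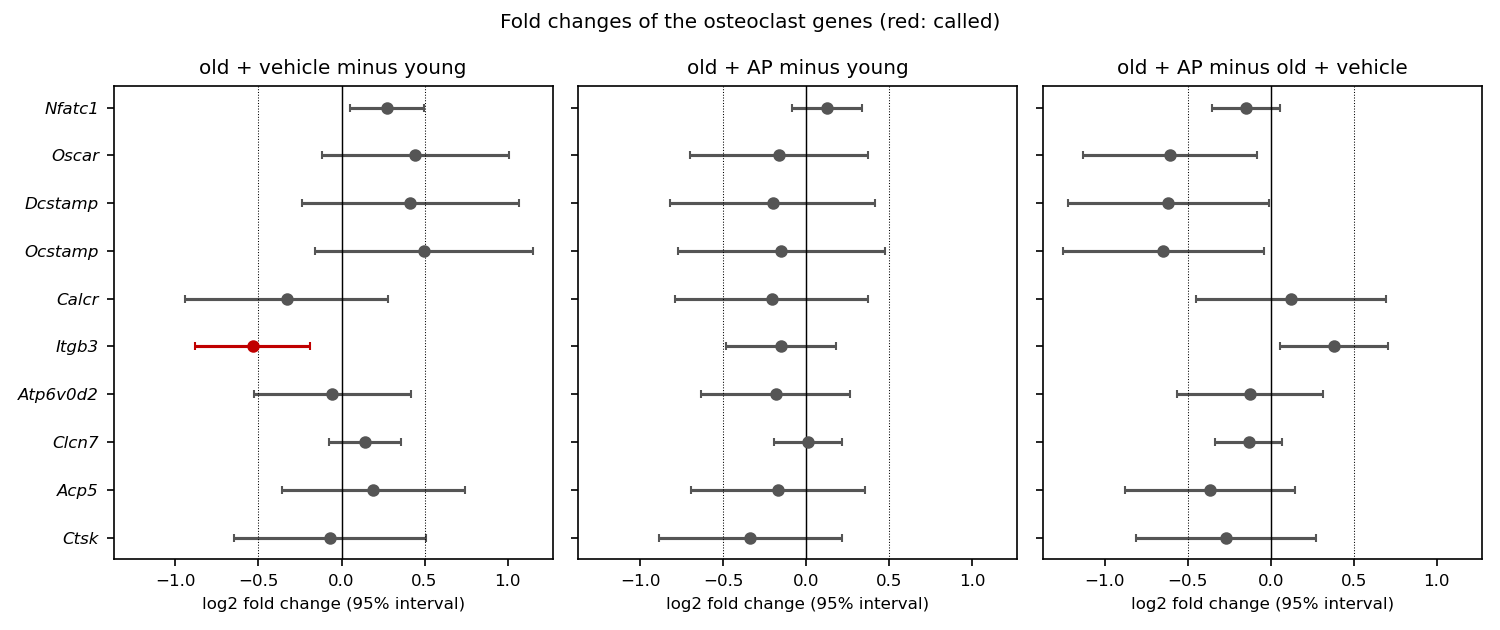
Log2 fold change of each of the 10 genes in the 3 comparisons, with bars for the 95% interval from edgeR's model of all 41 mice and dotted lines at the fold-change threshold of 0.5 in each direction. Itgb3 in old + vehicle-treated against young mice, at -0.53, is the 1 value that passed the test.

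Whether the genes vary together was asked within groups, on log2 CPM with each group's mean removed, over all 41 mice and all 45 pairs. The 9 genes other than Itgb3 moved together closely. Their 36 pairs had r of 0.676 to 0.965 (median 0.905) and Spearman's rho of 0.641 to 0.971 (median 0.898). All 36 pairs had p = 1e-05, the smallest that 100000 permutations within groups can give, and adjusted p = 1.25e-05 over the 45 pairs. Without the 2 mice farthest from the median of the first gene of a pair, which were not the same mice for every gene, their r was 0.617 to 0.955. Calcr, the gene with the fewest counts, had the loosest pairs, at r of 0.676 to 0.758 with the other 8. The fusion, receptor, enzyme and regulator genes thus shared most of their variance between mice: on Acp5, they shared 93.1% for Oscar, 91.3% for Ctsk, 90.2% for Ocstamp, 89.4% for Nfatc1, 89.2% for Dcstamp, 85.6% for Clcn7 and 84.7% for Atp6v0d2, and 54.2% for Calcr.

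The genes moved by different amounts. Per log2 unit of Acp5, Ocstamp moved by 1.12, Dcstamp by 1.11, Ctsk by 1.02 and Oscar by 1.01 log2 units, Calcr by 0.86 and Atp6v0d2 by 0.83. Nfatc1 moved by 0.38 and Clcn7 by 0.36. Both are also expressed in many other cell types, and whether this bears on their smaller amounts was not tested.

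Over the 3 groups together Itgb3 stood apart from this pattern, though not within the young or the vehicle group. Its 9 pairs had r of 0.129 to 0.434, of which 4 were called, and r of 0.0802 to 0.512 without the 2 farthest mice. By group its r with the other 9 genes was 0.377 to 0.833 in young mice, 0.612 to 0.933 in old + vehicle-treated mice and -0.304 to -0.0295 in old + AP-treated mice. The difference between groups was not tested, and 4 mice of the AP group bear on it. Old + AP-treated mice 18, 19, 24 and 28 had the 4 lowest Acp5 levels of their group, at 483, 585, 452 and 453 CPM, and Itgb3 at 456, 698, 393 and 404 CPM, all above the group's median. In the same mice the summed osteoblast markers were the 4 lowest of the group, at 5952, 5123, 3069 and 5026 CPM, and the summed megakaryocyte markers the 4 highest, at 1019, 1600.5, 888 and 847 CPM.

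**Figure D3:**
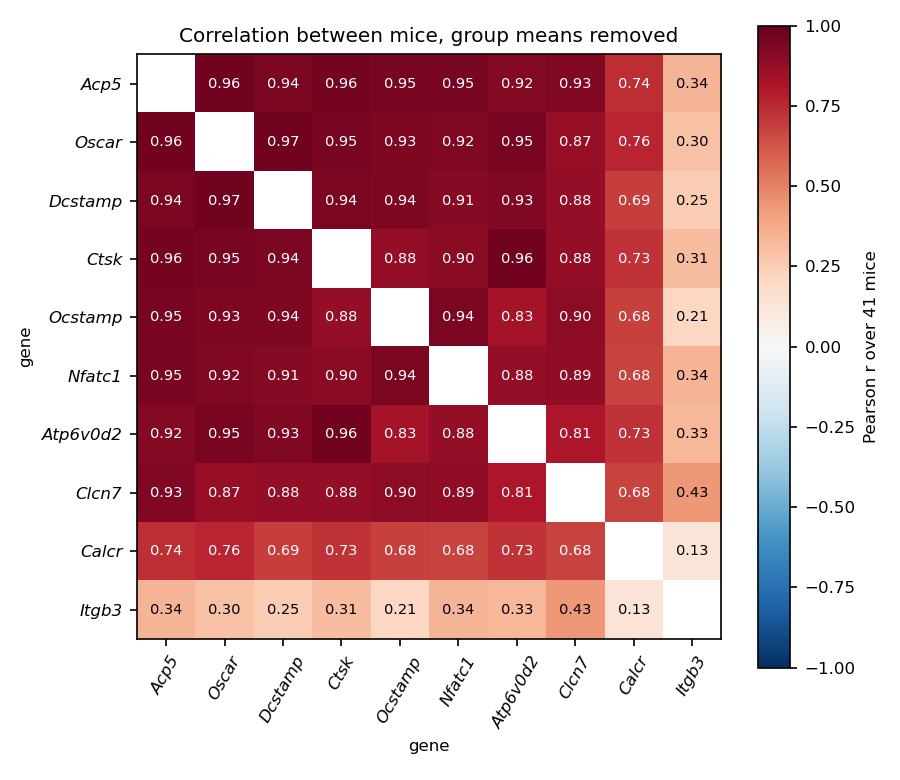
Pearson r for each of the 45 pairs of the 10 genes over 41 mice, on log2 CPM with group means removed. The 36 pairs without Itgb3 lie between 0.676 and 0.965, and the 9 pairs with Itgb3 between 0.129 and 0.434. Group by group, the pairs with Itgb3 were positive in young and in old + vehicle-treated mice and negative in old + AP-treated mice.

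The genes outside the list whose levels were most like those of the 10 genes were ranked by their mean r with them over the 41 mice, group means removed, as a description with no test. The first was Slc37a2, a sugar-phosphate transporter family member, at a mean r of 0.865. It was followed by Slc9b2 (0.853), a sodium-proton exchanger, Tm4sf19 (0.850), Rufy4 (0.848), C77080 (0.843), Adcy3 (0.842), an adenylyl cyclase, Siglec15 (0.841), a sialic acid receptor of osteoclasts, RP23-123L9.5 (0.841), Esyt3 (0.838) and Mst1r (0.837), the receptor of macrophage-stimulating protein. Of 19292 genes ranked the same way, each member by its r with the other members, Acp5 was at rank 2, Oscar at 6, Ctsk at 13, Dcstamp at 20, Nfatc1 at 24, Atp6v0d2 at 27, Clcn7 at 35 and Ocstamp at 37, whereas Calcr was at 263 and Itgb3 at 3349. The levels of all these genes come from the same libraries, and they share depth and the makeup of the tissue.

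The 3 genes most like Itgb3 alone were Pls1 (r = 0.907), Cd84 (0.899) and Gsap (0.891). Itga2b, the αIIb partner of integrin β3 on platelets, had r of 0.804 with it (rank 50), and the 7 megakaryocyte markers described below had r of 0.675 to 0.804. Itgav, the αv partner on osteoclasts, had r of 0.188. These r values are over the 3 groups together and were not read group by group.

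Markers of other cell types were set beside the genes, as mean z-scores of marker lists, over 110 relations of the 10 genes with 11 lists. Itgb3 varied between mice with 7 megakaryocyte markers (Itga2b, Gp1ba, Gp1bb, Gp9, Pf4, Ppbp, Gp6), with r of 0.814, rho of 0.835, r of 0.791 without the 2 farthest mice and adjusted p = 0.0001. It ran against the muscle markers (r = -0.795, rho = -0.806, r without the 2 farthest mice -0.774, adjusted p = 0.0001), and with the neutrophil (r = 0.650, rho = 0.607), erythroid (0.584, 0.581) and macrophage markers (0.480, 0.536). With the osteoblast markers its r was 0.0381 (adjusted p = 0.975). For the other 9 genes the order was different. Each of the 9 was correlated with the osteoblast markers, with r of 0.583 to 0.821, rho of 0.521 to 0.788, r of 0.5003 to 0.780 without the 2 farthest mice and adjusted p of 0.00364 or less. By rho all 9 of these relations were called as well. The osteocyte markers had r of 0.279 to 0.528 with the 9 genes, of which 7 were called by r and 8 by rho. The endothelial markers had r of 0.284 to 0.459 with the 9, of which 7 were called by r, and with the B cell markers 3 were, but by rho 0 were called with either list (adjusted p of at least 0.0943 and 0.0850). With the megakaryocyte markers 0 of the 9 were called (r -0.180 to 0.00114), with the macrophage markers 0 (-0.131 to 0.185) and with the muscle markers 0 (-0.363 to -0.0848).

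**Figure D4:**
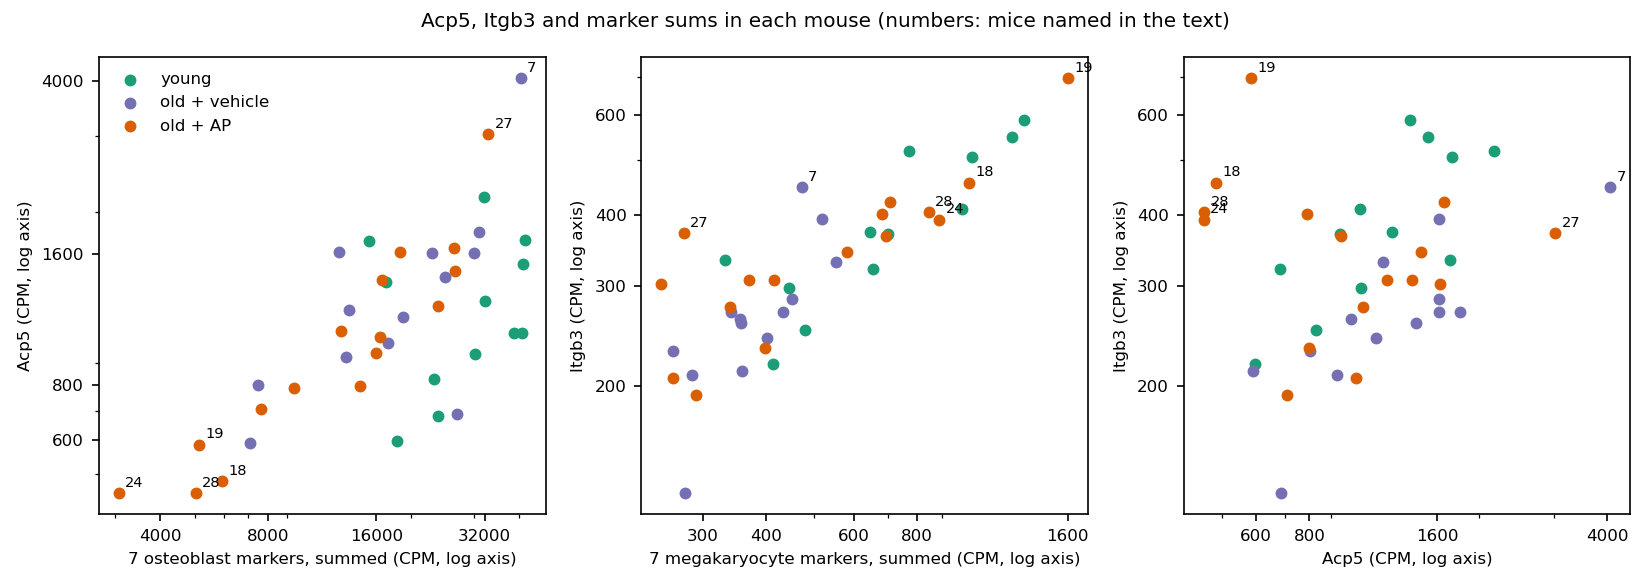
Acp5 against the summed osteoblast markers (left), Itgb3 against the summed megakaryocyte markers (middle) and Itgb3 against Acp5 (right), all in CPM on log axes, 1 point per mouse, coloured by group, with the numbers of mice named in the text. Itgb3 follows the megakaryocyte markers (r = 0.814 with the mean z-score of the list, not the plotted sum, group means removed), and AP mice 18, 19, 24 and 28 lie low in Acp5 and high in Itgb3.

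Several marker lists themselves moved with the groups, among them lists that were not used as covariates. In old + vehicle-treated against young mice, 6 of 7 B cell markers and 3 of 7 erythroid markers were lower, beside 4.76% of all genes. Of the 7 megakaryocyte markers, 5 were lower in old + vehicle-treated than in young mice, beside 4.76% of all genes, and their sum was 332 to 1308 CPM in young mice (median 677), 262 to 552 CPM under vehicle (median 359) and 248 to 1600.5 CPM under AP (median 498). Against young mice, 1 of 7 was lower under AP, beside 4.85% of all genes. Between the old groups 0 of 7 were called, beside 0.0726% of all genes, with 4 of 7 at an unadjusted p under 0.05, beside 23.9%. Of the 7 osteoblast markers, 3 were lower in old + vehicle-treated mice (Bglap -1.71, Bglap2 -1.55 and Ibsp -0.65 on the log2 scale), 5 were lower in old + AP-treated mice against young mice, and 0 were called between the old groups, beside the same shares of all genes. Their sum was 15215 to 41553 CPM in young mice (median 30989), 7097 to 40347 CPM under vehicle (median 18909) and 3069 to 32763 CPM under AP (median 15150). Medians of the muscle sum were 33527, 54555 and 36459 CPM. Of the markers in all lists, none was at 0 throughout a group.

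When the marker score of a list entered edgeR's model as a covariate, the osteoblast and the megakaryocyte lists bore on different genes. With the megakaryocyte score Itgb3 stood at -0.10 in the vehicle group against young mice (adjusted p = 0.567), at 0.05 in AP-treated against young mice (0.716) and at 0.15 in AP-treated against vehicle-treated mice (0.516). With the muscle score it stood at -0.37 (adjusted p = 0.0106), under the fold-change threshold, and with the macrophage score at -0.43 (0.0430), also under it. With the neutrophil score it was called, at -0.70 (0.000158). With the osteoblast score Itgb3 was called at -0.53 (0.0472), as it was in that fit without mouse 7 (-0.65, 0.0166) and without mice 7 and 27 (-0.67, 0.0191), and its call was lost without mouse 27 alone (-0.54, 0.0536).

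With the osteoblast score, 9 of the 10 genes had positive values in the vehicle group against young mice, with a median of 0.47, and 5 were called higher. This was beside 4.27% of all genes called higher and 3.7% lower (7.96% in either direction) in the same fit. Those 5 were Ocstamp (1.07, adjusted p = 0.000289), Oscar (0.998, 0.00014), Dcstamp (1.001, 0.00129), Acp5 (0.69, 0.00679) and Nfatc1 (0.51, 1.63e-05). Without the score in the model none of these 5 genes was called. Without mouse 7, the values were 0.83, 0.84, 0.75, 0.54 and 0.44, and without mice 7 and 27 they were 0.79, 0.80, 0.69, 0.49 and 0.42. Ocstamp, Oscar and Dcstamp were called in each of these fits, Acp5 without mouse 7 but not without both mice (adjusted p = 0.0625), and Nfatc1 in neither, where its value lay under the fold-change threshold at adjusted p = 8.54e-05 and 0.000209. The score itself was lower in old mice, and within groups it was correlated with the 9 genes other than Itgb3 (r of 0.583 to 0.821). A covariate with both traits raises the fitted values of these genes against young mice. The calls made with this score are therefore no separate evidence that the genes were higher, and what lies behind the shift was not tested.

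For old + AP-treated against young mice, 2 of 10 genes were called higher with the osteoblast score (Ocstamp 0.73, adjusted p = 0.0294; Oscar 0.60, 0.0359), beside 2.23% of all genes called higher and 1.84% lower (4.07% in either direction), and the median of the 10 was 0.46. Without mouse 7 the count was 1 (Ocstamp), beside 734 of all genes. Without mouse 27, or without both mice, it was 0, beside 705 and 614 of all genes. Between the old groups 0 of 10 genes were called with this score, as were 0 of all genes, and Oscar stood at -0.42 without mouse 27 and at -0.31 without mouse 7.

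**Figure D5:**
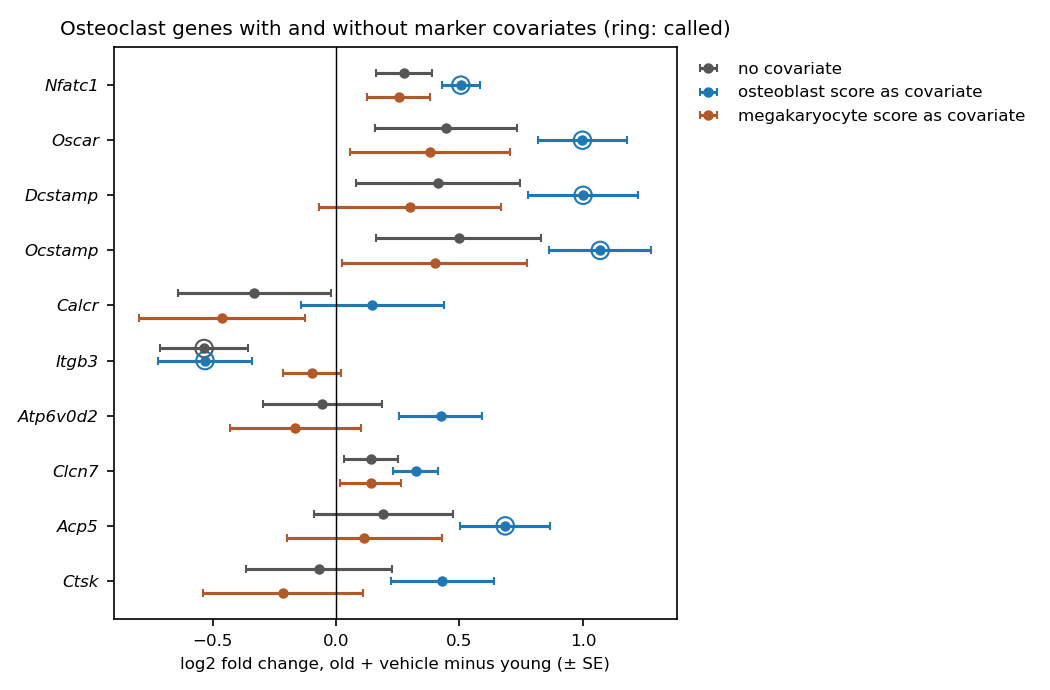
Log2 fold change of each of the 10 genes in old + vehicle-treated against young mice, without a covariate and with the osteoblast or the megakaryocyte marker score in the model, with bars for 1 standard error and rings around values that were called. With the osteoblast score 9 of 10 values are above 0, and with the megakaryocyte score Itgb3 is at -0.10.

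Beside the 10 genes, 95 further genes of the pathway were read from 9 lists, and all 95 passed the filter on low counts. In the vehicle group against young mice 5 were higher and 1 was lower, beside the 9.06% of all genes, and all 5 were among the 19 transcription factors. Fosl1, Fos, Jun and Junb are parts of the AP-1 dimer that acts with NFATc1, and are immediate early genes in many cells. Fos was at 24.7 CPM on average in young and at 46.0 CPM in old + vehicle-treated mice (log2 fold change 0.90, adjusted p = 0.0308), Jun at 29.05 and 56.4 CPM (0.96, 0.0014) and Junb at 15.6 and 29.9 CPM (0.94, 0.0146). Tfeb, a regulator of lysosomal genes that binds the E-box, was at 34.4 and 55.8 CPM (0.70, 0.00189). Fosl1 was barely read, at 1 to 7 counts per young mouse and 1 to 147 counts per mouse of the vehicle group. It passed the filter on low counts only through old mice, where it was higher, and did not pass with only the 2 groups in the model. Its fitted log2 fold change, which depends on the prior count at such counts, was 2.96 (adjusted p = 0.000674), and 1.87 (0.00581) without mouse 16. Its call is therefore no support for a difference. The call of Fos was lost without mouse 6, 7 or 39, and with the megakaryocyte score (0.80, adjusted p = 0.0602). With that score Tfeb lay under the fold-change threshold (0.45, 0.0341). Sh3pxd2a, the podosome scaffold Tks5, was the gene that was lower, at 337 CPM in young and 227 CPM in old + vehicle-treated mice (-0.57, adjusted p = 0.00544), and its call was lost with the osteoblast score (-0.22, 0.0908) and with the neutrophil score (-0.46, 0.00645). With the megakaryocyte score 13 of the 95 were called, 11 higher and 2 lower, beside 2389 of all genes. Leaving out 1 mouse gave 5 to 7, beside 1500 to 1975 of all genes.

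Of the signals and receptors, 0 of 7 were called in any of the 3 comparisons, beside 9.06% of all genes in the vehicle group against young mice, 8.58% in the AP group against young mice and 0.0726% between the old groups. RANKL (Tnfsf11) stood at 0.01 (adjusted p = 0.969) in the vehicle group against young mice. For RANK (Tnfrsf11a) this value was -0.10 (0.774) and for the M-CSF receptor Csf1r -0.06 (0.817). Of the 9 costimulation, 8 inhibitor, 6 fusion, 18 acid secretion, 8 protease and 7 coupling genes, 0 were called in any comparison, and in this one between 0 and 3 genes of each list had an unadjusted p under 0.05, beside 31.8% of all genes. For a list of 6 to 9 genes, a count of 0 called is near what these shares of all genes give.

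In the AP group against young mice 1 of the 95 genes was higher and 2 were lower, beside 8.58% of all genes. Fosl1, the gene that was higher, stood at 2.33 (adjusted p = 0.0064, 0 to 61 counts per AP-treated mouse). It passed the filter only through old mice here too, so this call is no support for a difference either. Sh3pxd2a fell by 0.77 on the log2 scale (0.00018) to 197 CPM, and Jund, a further AP-1 member, fell by 0.59 (0.0391), from 16.5 to 10.9 CPM, a call lost in 8 of the 41 fits that left out 1 mouse, without the filter on low counts (-0.60, 0.0531) and with the neutrophil (-0.53, 0.0826) or osteoblast score (-0.31, 0.469). With the osteoblast score Sh3pxd2a stood at -0.32 (0.0305), under the fold-change threshold. The count of 3 was 2 to 6 with 1 mouse left out, beside 1416 to 1936 of all genes, with 6 (3 in each direction) without mouse 27. It was 14 (9 higher, 5 lower) with the megakaryocyte score, beside 2929 of all genes. DESeq2 called 5, beside 1818 (9.42%) of all genes.

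Between the old groups edgeR called 0 of the 95, with 23 (24.2%) at an unadjusted p under 0.05, beside 23.9% of all genes. Leaving out 1 mouse gave 0 to 5, all lower under AP, with 5 without mouse 9 and 4 without mouse 2 or 10, the mice without which 405, 312 and 241 of all genes were called. DESeq2 called 4, all lower, beside 98 lower of all genes.

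The nearest relatives of the members, which serve the same families in other cells, were read for comparison. In the vehicle group against young mice Nfatc2 was higher (0.60, adjusted p = 0.000791), whereas Nfatc3 stood at -0.16 (0.0363), Atp6v0d1, the widely expressed pump subunit, at 0.19 (0.0223), Itgb1 at -0.24 (0.0218) and Clcn5 at -0.26 (0.0484), all under the fold-change threshold. Clcn3 (-0.16, 0.325), Itgb5 (0.29, 0.110) and the calcitonin receptor-like Calcrl (-0.03) did not pass the test. With the osteoblast score Nfatc2 stood at 0.40 (0.0142) and with the megakaryocyte score at 0.497 (0.00545), both under the threshold. Of these 8 relatives 1 was thus called, beside 9.06% of all genes. In the AP group against young mice 0 of the 8 were called, beside 8.58%, and both counts are near the background. There Nfatc2 stood at 0.43 (0.0120).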

How the data were processed

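The 10 genes, the pathway lists and the marker lists were chosen with earlier results of these data known. The authors deposited raw counts per gene, 1 column per mouse, with no normalization. Per the labels' processing notes, TopHat2 2.0.6, HTSeq and GRCm38 were used, and the strand setting is not given in the sources used here. All 41 columns were used, grouped by the labels. The counts were scaled by TMM and tested in edgeR 4.0.16 (R 4.3.3), with 1 quasi-likelihood fit for young, vehicle and AP mice over the 19292 genes kept by its filter, with Benjamini-Hochberg adjustment over all of them. CPM are TMM-scaled, log2 CPM have a prior count of 2, and CPM per kilobase use the length in the file. Named genes were the 10, called genes of the pathway lists (at most 6 per list and comparison), 8 relatives and the 10 genes most like the list. Further genes named beside Itgb3 (Pls1, Cd84, Gsap, Itgav) were chosen after its values were seen. Correlations used 100000 permutations of mice within groups (NumPy 2.4.6, SciPy 1.17.1). Alternatives were DESeq2 1.42.0, its size factors, fits of 2 groups, no fold-change threshold, no filter, marker scores as covariates and each mouse left out. The listed genes under these alternatives, Spearman's rho for the markers, and mice 7 and 27 left out beside the osteoblast score were chosen after the values had been seen. On simulated data edgeR recovered 190 of 200 changed genes among 19147, with 5 false calls. DESeq2 recovered 194 of 200 among 19292, with 12 false calls. Recovery of the 10 genes at their own fold changes was not tested. Intervals are normal intervals of the fitted log2 fold changes and are slightly narrower than the quasi-likelihood test implies. One listed marker is not reported here, and its list was used without it. Nothing in the labels says that mice were independent beyond their numbers.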

Additional observations from a re-analysis of the deposited data

How the results depend on the processing

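The count of genes called in old + vehicle-treated against young mice, 1 in the main fit, was 0 with the muscle, macrophage or megakaryocyte score as a covariate, beside 1819, 1796 and 2389 of all genes. It was 6 with the osteoblast score, beside 1536 of all genes. With that score it was 5 without mouse 7, 5 without mouse 27 and 4 without both, beside 1538, 1447 and 1418 of all genes. These alternatives without mice were chosen after seeing the data. Leaving out each mouse gave 0 to 1. In old + AP-treated against young mice the count of 0 became 2 with the osteoblast score, 1 without mouse 7 as well, and it stayed at 0 for each mouse left out, as it did between the old groups. DESeq2, its size factors, no filter, models of 2 groups and no fold-change threshold left the 3 counts as they were. Signs turned, in genes that did not pass the test, with the osteoblast score for Ctsk (0.43), Calcr (0.15) and Atp6v0d2 (0.42) in vehicle-treated against young mice. They also turned for Acp5 (0.54), Ctsk (0.38), Calcr (0.38), Ocstamp (0.73), Dcstamp (0.61), Oscar (0.60) and Atp6v0d2 (0.45) in AP-treated against young mice, where Ocstamp and Oscar then passed, and for Atp6v0d2 (0.0242) between the old groups. Between the old groups 3 of 10 values were positive with this score, and 5 of 10 without mouse 7 as well. Others that turned were Itgb3 in AP-treated against young mice with the megakaryocyte score (0.0544), Clcn7 in the same comparison with the muscle score (-0.000495) and Calcr between the old groups in the permutation test of log2 CPM (-0.0223, p = 0.947). The cause was not tested. With each mouse left out, values crossed 0 for Acp5 (-0.0513 to 0.293), Ctsk (-0.342 to 0.0453) and Atp6v0d2 (-0.208 to 0.0190) in vehicle-treated against young mice, for Clcn7 (-0.0459 to 0.0557) in AP-treated against young mice, and for Ctsk (-0.439 to 0.00472) and Atp6v0d2 (-0.270 to 0.0255) between the old groups. The 40 of 45 pairs called were 36 in old mice alone, 36 without centring, 40 at a prior count of 0.5 and 41 by Spearman's rho, and the 31 marker relations called were 22 by rho. No paired analysis was possible because no mouse number is shared between groups. Depth limits Calcr and Fosl1 most among the named genes, from 59 counts and from 0 counts per mouse.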
